A study of Homo sapiens with 6 samples.

Results

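Transcripts of 10 genes of the tumour necrosis factor (TNF) receptor pathway were measured after transfection of a microRNA mimic into the human monocytic leukaemia cell line THP-1. The genes were chosen by name from the 26347 gene rows of the count table, as the TNF receptors TNFRSF1B and TNFRSF1A with their nearest adaptors, ubiquitin ligases and brakes. Among them TNFRSF1B, TRAF6 and TNFAIP3 were chosen as reported targets of the miR-125 family. All 10 had a row and passed the filter on low counts. Cells received a miR-125a-5p mimic in 3 libraries and a negative control mimic in 3 libraries. RNA was taken 24 h later, and no other genotype, stimulus or added TNF is named in the labels. THP-1 is 1 leukaemia line, the series title speaks of macrophages, and no differentiation step is labelled. The sources do not say whether the libraries came from separate cultures, so the p-values below measure how these libraries vary, and that variation may be technical.

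TNF signals through a pair of receptors. TNFR1 (TNFRSF1A) carries a death domain and assembles RIPK1, TRAF2 and the ubiquitin ligases cIAP1 (BIRC2) and cIAP2 (BIRC3), whose ubiquitin chains recruit the kinases that switch on NF-kB. TNFR2 (TNFRSF1B) has no death domain and binds TRAF2 directly. TNFAIP3 encodes A20, a ubiquitin-editing enzyme that is induced by NF-kB and shuts the pathway down. A microRNA guides the silencing machinery mainly through its seed, bases 2 to 8, by base pairing to the 3′ untranslated region (3′ UTR) of a messenger RNA. A site can lower the transcript or hold back its translation, and RNA counts record only the first.

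Libraries held 8256149 to 10257791 counts. In a principal component analysis of log2 CPM, control library 1 lay by itself, with a score of -38.1 on the leading axis where the other 5 libraries had 1.25 to 16.7. The monocyte lineage genes fixed as markers (12 of 12 detected in all libraries) summed to 2295 to 2516 CPM in miR-125a-5p libraries and 2350 to 2411 CPM in control libraries. CD3E and the 4 erythroid markers were at 0 in all libraries. T and NK cell markers summed to 42.2 to 51.9 CPM in miR-125a-5p libraries and 48.4 to 52.8 CPM in control libraries. NKG7 (mean 20.8 CPM) and GNLY (mean 28.3 CPM) made up nearly all of that sum. B cell markers summed to 2.14 to 5.09 CPM in miR-125a-5p libraries and 3.44 to 4.54 CPM in control libraries. Endothelial markers summed to 279 to 340 CPM in miR-125a-5p libraries and 306 to 323 CPM in control libraries, nearly all from PECAM1 (mean 310 CPM). Epithelial and fibroblast markers summed to at most 0.975 and 3.56 CPM in any library. CPM is the counts-per-million scale, computed from plain library totals for the markers and from totals adjusted by TMM (trimmed mean of M-values) for every other level below.

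The sequences that decide the search for sites are the mimic's own and those of the matches it finds. The seed is in capitals in both mature microRNAs below, and miR-125b-5p, a family member with an identical seed, is shown because it would find the same matches. Both are RefSeq sequences on GRCh38.p14.

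hsa-miR-125a-5p: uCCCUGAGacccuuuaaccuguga

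hsa-miR-125b-5p: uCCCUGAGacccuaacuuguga

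In DNA letters the full match to the seed followed by an A is the 8mer CTCAGGGA, the match without that A is the 7mer-m8 CTCAGGG, and the match to bases 2 to 7 followed by an A is the 7mer-A1 TCAGGGA. Only the transcribed strand was searched, in the longest 3′ UTR that GENCODE 29 gives each gene. Of the 10 genes 7 held a match of 7 or 8 bases. Among all 12796 searched genes 24.3% held one. TNFRSF1B, TRAF6 and TNFAIP3, chosen as reported targets of the family, are among the 7. The searched genes were not matched for 3′ UTR length, so no excess is read from these shares. TNFAIP3 and TRAF6 held 8mers, which 6.0% of searched genes held as their best match. TRAF1, BIRC3 and RIPK1 had a 7mer-m8 as their best match and TNFRSF1B and TRAF3 a 7mer-A1. TNFRSF1A, TRAF2 and BIRC2 held no 6-base match in the 3′ UTR.

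The windows below show the 3′ UTR matches of the 3 reported targets in the transcript with the longest coding sequence, and those of TRAF1 and BIRC3. These last share a best match, of which TRAF1 held 1 and no other, whereas BIRC3 held a further 7mer-A1, and their log2 fold changes had opposite signs. The windows are read 5′ to 3′ on the transcript, with the match in capitals.

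TNFRSF1B, 7mer-A1: ctaggccacaccatctccttTCAGGGAatt

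TRAF6, 7mer-A1: caggttgttactaaggatatTCAGGGAtga

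TRAF6, 8mer: aatatcgtggaatctagttCTCAGGGAgac

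TNFAIP3, 8mer: tgcaagaagctcaaggaagCTCAGGGAaaa

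TRAF1, 7mer-m8: ctgcccttggcacccaagacCTCAGGGcac

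BIRC3, 7mer-m8: taagactgtaatagggaataCTCAGGGgaa

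BIRC3, 7mer-A1: caagtttctgtggcttgcctTCAGGGAgaa

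The TNFRSF1B match lies at chr1:12208226-12208232 (GRCh38, plus strand), in exon 10 of 10 and 1206 bases into a 3′ UTR of 2208 bases, and 1 of 2 coding transcripts holds it. The TRAF6 matches lie on the minus strand in exon 7 of 7, the 7mer-A1 at chr11:36489247-36489253 and the 8mer at chr11:36488555-36488562. The TRAF6 7mer-A1 is in the 3′ UTR of both annotated coding transcripts and the 8mer in 1 of them. The TNFAIP3 8mer shown is at chr6:137881816-137881823 on the plus strand, in exon 9 of 9, and begins 497 bases after the stop codon of the transcript with the longest coding sequence. A further TNFAIP3 8mer, at chr6:137880084-137880091, is 3′ UTR in 1 of 10 coding transcripts and coding sequence in 4, among them the transcript with the longest coding sequence. The TRAF1 match is at chr9:120904930-120904936 on the minus strand, in exon 8 of 8, 84 bases after the stop codon. The BIRC3 matches lie on the plus strand in exon 10 of 10, the 7mer-m8 at chr11:102338257-102338263 and the 7mer-A1 at chr11:102338861-102338867, and 2 of 4 coding transcripts hold both.

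**Figure D1:**
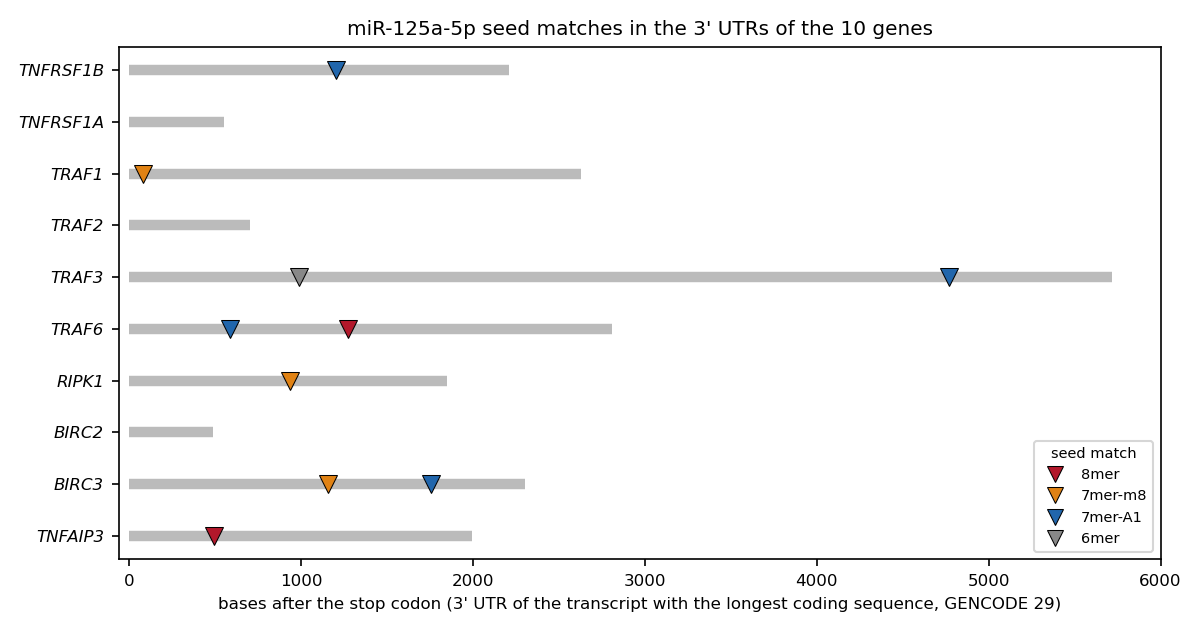
Grey bars give the 3′ UTR of the transcript with the longest coding sequence for each gene (x axis, bases after the stop codon), and triangles mark matches to the miR-125a-5p seed by type. TNFRSF1A, TRAF2 and BIRC2 have short 3′ UTRs of 555, 706 and 487 bases with no match, and TRAF3 has the longest, 5716 bases.

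The comparison asked how these transcripts differed after the miR-125a-5p mimic. None of the 10 genes passed the quasi-likelihood test of edgeR, with p-values adjusted by the Benjamini-Hochberg method across 14731 genes, and DESeq2 and limma voom also called 0. In the whole table edgeR called 0.0272% of genes lower and 0% higher. At an unadjusted p under 0.05 the 10 genes gave 1 lower, TNFRSF1B, and 0 higher, where 3.22% of all tested genes were lower and 2.69% higher. Libraries of the groups did not overlap for 1 gene that was lower (TNFRSF1B) and 1 that was higher (BIRC3), against 5.90% and 5.31% of all tested genes. The log2 fold change was negative for 6 and positive for 4 of the genes, with a median of -0.0029. Of all tested genes 49.8% were negative, with a median of 0.0011. The counts at an unadjusted p under 0.05 and of groups that did not overlap are at most 1 gene of the 10 in each direction. They are read here as statements on that gene, not on the group.

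**Figure D2:**
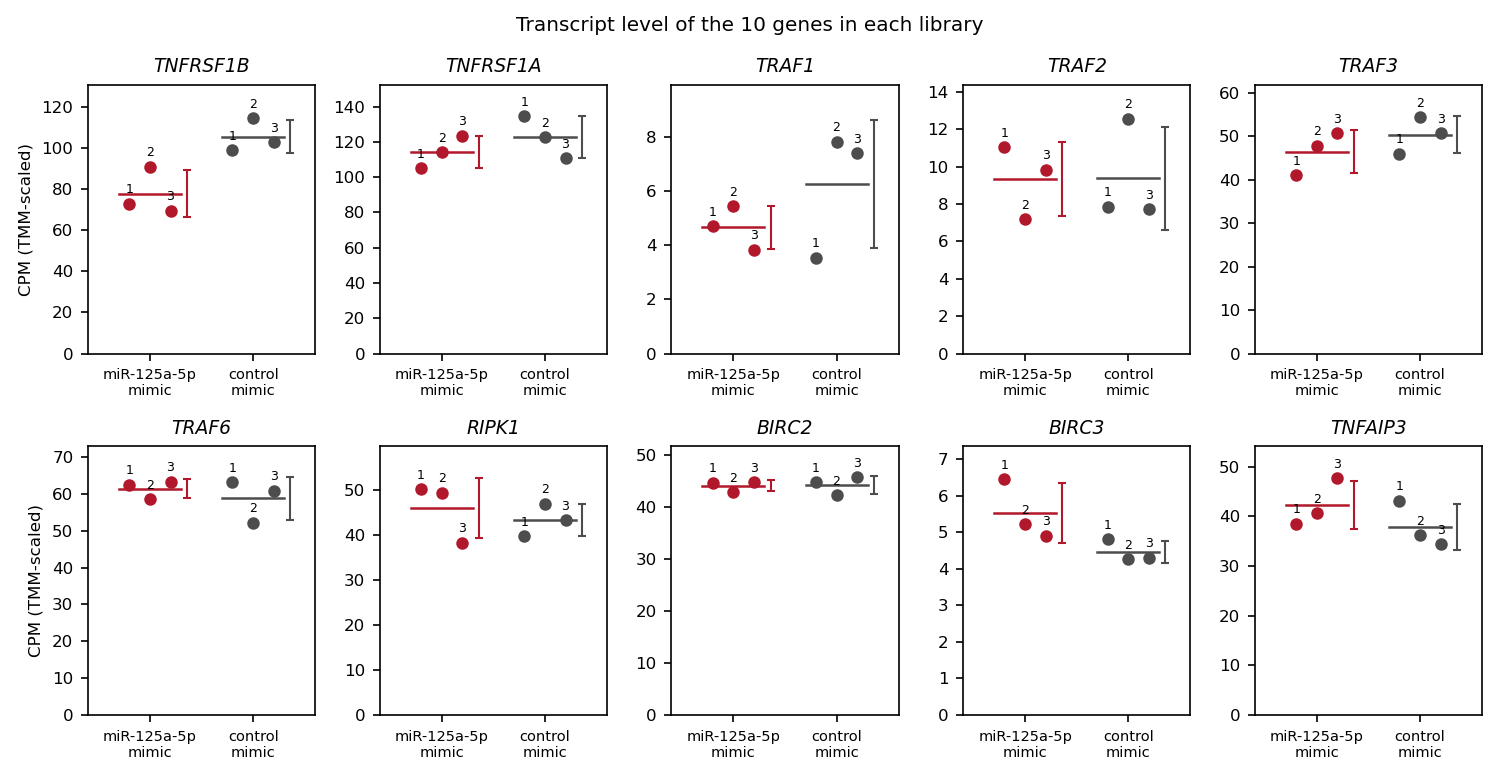
Each panel gives 1 gene's level in TMM-adjusted CPM, with a dot per library (numbered), a line at the mean and a bar for the SD of 3 libraries. The TNFRSF1B dots of the miR-125a-5p libraries all lie below those of the control libraries, and in 8 of the other 9 panels the groups overlap.

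TNFR2 had the clearest difference. TNFRSF1B (NCBI gene 7133) stood at 72.8, 90.8 and 69.3 CPM in miR-125a-5p libraries 1, 2 and 3, against 98.9, 114 and 103 CPM in control libraries 1, 2 and 3. Every miR-125a-5p library was below every control library, and library 2 was the highest of its group on both sides. The raw counts behind these levels were 620, 835 and 579 in miR-125a-5p libraries and 1008, 966 and 931 in control libraries. TNFRSF1B averaged 77.6 ± 11.5 CPM in miR-125a-5p libraries and 105 ± 8.04 CPM in control libraries (SD, n = 3 each). The edgeR log2 fold change was -0.44 (SE 0.11, 95% confidence interval -0.67 to -0.21, unadjusted p = 0.000716, adjusted p = 0.373), which is a change of -26.2% with an interval of -37.3% to -13.2%.

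That p ranked 22nd among genes with a negative log2 fold change, and 5.49% of all tested genes had a lower one. The exact two-sided permutation test over the 6 libraries gave TNFRSF1B p = 0.1, the smallest that 3 against 3 libraries allow. With 1 library left out the TNFRSF1B log2 fold change stayed between -0.57 (without miR-125a-5p library 2) and -0.37 (without miR-125a-5p library 3), with edgeR adjusted p from 0.224 to 0.812. Without control library 1, the library that lay apart, it was -0.49. TNFRSF1B passed under 1 alternative: without the filter on low counts edgeR gave adjusted p = 0.038, at a log2 fold change of -0.44. Among the 1020 genes whose best match was a 7mer-A1, 40 (3.92%) had a lower log2 fold change than TNFRSF1B, and the median of that class was -0.0098.

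TNFR1, the receptor with the death domain, had the highest level per length of the 10 genes. TNFRSF1A stood at 105, 114 and 123 CPM in miR-125a-5p libraries 1, 2 and 3, against 135, 123 and 111 CPM in control libraries 1, 2 and 3. The groups overlapped, with control library 1 highest. TNFRSF1A averaged 114 ± 9.12 CPM in miR-125a-5p libraries and 123 ± 11.97 CPM in control libraries (SD, n = 3 each), an edgeR log2 fold change of -0.10 (SE 0.10, adjusted p = 0.938). The 95% confidence interval ran from -19.7% to 7.93%. With 1 library left out the value ran from -0.17 (without control library 3) to -0.03 (without control library 1). Its only seed match was a 7mer-m8 in the coding sequence.

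Whether the receptors differed from each other was tested on the ratio of their levels per kilobase of transcript within each library, which needs no scaling between libraries. TNFRSF1B over TNFRSF1A came to 0.418, 0.480 and 0.339 in miR-125a-5p libraries 1, 2 and 3, against 0.443, 0.562 and 0.560 in control libraries 1, 2 and 3. The groups overlapped, since control library 1 lay below miR-125a-5p library 2. The mean log2 ratio differed by -0.35, miR-125a-5p minus control (exact permutation p = 0.2, adjusted p = 0.3 over 12 pairs of genes), so a difference between the receptors was not shown. The ratio of TNFRSF1B to each of the other 9 genes was lower on average in miR-125a-5p libraries, and for 6 of the 9 the groups did not overlap. These were TRAF3, TRAF6, TNFAIP3, BIRC2, BIRC3 and RIPK1, each with exact permutation p = 0.1 and adjusted p = 0.171, the smallest reached. All 9 ratios share the TNFRSF1B values, so they are not separate results. TNFRSF1B was chosen for these pairs after its values were seen, so they describe it.

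**Figure D3:**
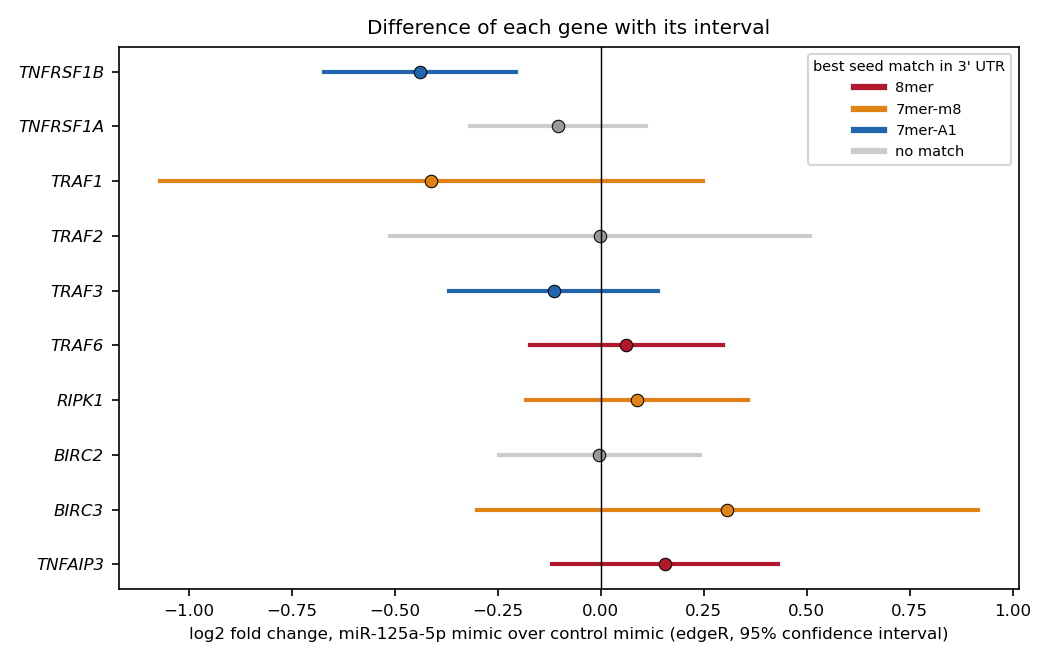
Dots give the edgeR log2 fold change of the miR-125a-5p mimic over the control mimic and lines its 95% confidence interval, coloured by the best seed match in the 3′ UTR. The TNFRSF1B interval, -0.67 to -0.21, is the only one of the 10 that does not hold 0, before any adjustment for the number of genes.

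The TRAF adaptors carry signals from the receptors to ubiquitin and kinase complexes. TRAF6, the ubiquitin ligase used by Toll-like and interleukin-1 receptors and not by the TNF receptors themselves, stood at 62.5, 58.5 and 63.2 CPM in miR-125a-5p libraries 1, 2 and 3, against 63.2, 52.2 and 60.9 CPM in control libraries 1, 2 and 3. The groups overlapped, and control library 2 was lowest. TRAF6 averaged 61.4 ± 2.56 CPM in miR-125a-5p libraries and 58.8 ± 5.78 CPM in control libraries (SD, n = 3 each), with an edgeR log2 fold change of 0.06 (SE 0.11, adjusted p = 0.967). The 95% confidence interval ran from -11.3% to 22.8%. Among the 768 genes with an 8mer, 71.4% had a lower log2 fold change than TRAF6, and the class median was -0.065. The sign of this small value was not stable: without control library 2 it was -0.02.

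TRAF3, an adaptor that holds the non-canonical NF-kB pathway in check, stood at 41.0, 47.8 and 50.7 CPM in miR-125a-5p libraries 1, 2 and 3, against 46.0, 54.5 and 50.7 CPM in control libraries 1, 2 and 3. The groups overlapped, with miR-125a-5p library 1 lowest and control library 2 highest. TRAF3 averaged 46.5 ± 4.97 CPM in miR-125a-5p libraries and 50.4 ± 4.23 CPM in control libraries (SD, n = 3 each). The edgeR log2 fold change was -0.11 (SE 0.12, adjusted p = 0.943), with a 95% confidence interval from -22.6% to 10.1%. With 1 library left out it ran from -0.18 to -0.03, the smallest size being without miR-125a-5p library 1. Its 7mer-A1 lies near the far end of the 3′ UTR, at base 4769 of 5716, and 2 of 7 coding transcripts hold it. TRAF2, the adaptor of both TNF receptors, stood at 11.04, 7.17 and 9.82 CPM in miR-125a-5p libraries 1, 2 and 3, against 7.85, 12.6 and 7.73 CPM in control libraries 1, 2 and 3. Its highest and its lowest library fell in opposite groups, and the means were 9.35 ± 1.98 CPM in miR-125a-5p libraries and 9.38 ± 2.75 CPM in control libraries (SD, n = 3 each). The 95% confidence interval of TRAF2 ran from -29.9% to 42.2%, at counts of 66 to 106 per library, so changes of these sizes are not excluded.

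TRAF1, an adaptor without a RING finger that binds TRAF2 and is itself induced by NF-kB, had the lowest level per length. It stood at 4.70, 5.43 and 3.83 CPM in miR-125a-5p libraries 1, 2 and 3, against 3.53, 7.81 and 7.40 CPM in control libraries 1, 2 and 3. Control library 1 was the lowest of all 6 and control libraries 2 and 3 were the highest, so the groups overlapped. TRAF1 averaged 4.66 ± 0.802 CPM in miR-125a-5p libraries and 6.25 ± 2.36 CPM in control libraries (SD, n = 3 each). The edgeR log2 fold change was -0.41 (SE 0.32, adjusted p = 0.915), close in size to that of TNFRSF1B, with a 95% confidence interval from -52.4% to 18.7%. Without control library 1 it was -0.71 (unadjusted p = 0.028, adjusted p = 0.731), and without control library 2 it was -0.22. Counts of TRAF1 were 32 to 67 per library, where counting error alone is 12.2% to 17.7% of a count.

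RIPK1, the kinase that serves as scaffold of the TNFR1 complex, stood at 50.2, 49.3 and 38.2 CPM in miR-125a-5p libraries 1, 2 and 3, against 39.6, 46.9 and 43.2 CPM in control libraries 1, 2 and 3. miR-125a-5p libraries 1 and 2 were above every control library and miR-125a-5p library 3 was below them. RIPK1 averaged 45.9 ± 6.68 CPM in miR-125a-5p libraries and 43.2 ± 3.62 CPM in control libraries (SD, n = 3 each). The edgeR log2 fold change was 0.09 (SE 0.13, adjusted p = 0.959), with a 95% confidence interval from -11.8% to 28.1%. It was 0.20 without miR-125a-5p library 3 and 0.15 without control library 2, but 0.02 without miR-125a-5p library 1 and 0.03 without miR-125a-5p library 2 or control library 1. Besides its 7mer-m8 in the 3′ UTR, RIPK1 held a 7mer-m8 and a 7mer-A1 in the coding sequence. An antisense gene shares 5.63% of the annotated exon length of RIPK1, and 1.88% is shared with an antisense gene in TNFAIP3. The strand setting of the counts is not given in the sources used here, so reads of such partners cannot be told apart.

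The cIAP ubiquitin ligases are neighbours on chromosome 11. BIRC2 was the steadiest of the 10, at 44.6, 42.8 and 44.7 CPM in miR-125a-5p libraries 1, 2 and 3, against 44.6, 42.2 and 45.6 CPM in control libraries 1, 2 and 3. The groups overlapped throughout, and the coefficient of variation over all 6 libraries was 2.98%. The edgeR log2 fold change of BIRC2 was -0.0038 (SE 0.12, adjusted p = 0.999), with a 95% confidence interval from -15.8% to 18.1%.

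BIRC3, which NF-kB induces, stood at 6.46, 5.22 and 4.91 CPM in miR-125a-5p libraries 1, 2 and 3, against 4.81, 4.26 and 4.31 CPM in control libraries 1, 2 and 3. Every miR-125a-5p library was above every control library, by a narrow margin between miR-125a-5p library 3 and control library 1. BIRC3 averaged 5.53 ± 0.820 CPM in miR-125a-5p libraries and 4.46 ± 0.303 CPM in control libraries (SD, n = 3 each), with an edgeR log2 fold change of 0.31 (SE 0.29, adjusted p = 0.934) and a 95% confidence interval from -18.8% to 88.6%. The exact permutation test gave BIRC3 p = 0.1, again the smallest possible, and the other 8 genes apart from TNFRSF1B had p from 0.3 to 1. Behind these levels were 55, 48 and 41 counts in miR-125a-5p libraries and 49, 36 and 39 counts in control libraries. The exact 95% Poisson interval of the lowest, 25.2 to 49.8, overlapped that of the highest, 41.4 to 71.6. These intervals are for raw counts, before scaling to library totals. With 1 library left out the BIRC3 log2 fold change ran from 0.18 (without miR-125a-5p library 1) to 0.38 (without miR-125a-5p library 3). The ratio of BIRC3 to BIRC2 per kilobase was 0.111 ± 0.016 in miR-125a-5p libraries and 0.089 ± 0.0059 in control libraries (SD, n = 3 each, exact permutation p = 0.1, adjusted p = 0.171 over the 12 pairs).

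TNFAIP3, the A20 brake, stood at 38.5, 40.7 and 47.7 CPM in miR-125a-5p libraries 1, 2 and 3, against 43.2, 36.2 and 34.4 CPM in control libraries 1, 2 and 3. Control library 1 lay above miR-125a-5p libraries 1 and 2, so the groups overlapped. TNFAIP3 averaged 42.3 ± 4.79 CPM in miR-125a-5p libraries and 37.9 ± 4.65 CPM in control libraries (SD, n = 3 each), with an edgeR log2 fold change of 0.15 (SE 0.13, adjusted p = 0.919). The 95% confidence interval ran from -7.95% to 34.6%. Among the 768 genes with an 8mer, 84.5% had a lower log2 fold change than TNFAIP3. Without control library 1 it was 0.26, and without miR-125a-5p library 3 it was 0.06.

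**Figure D4:**
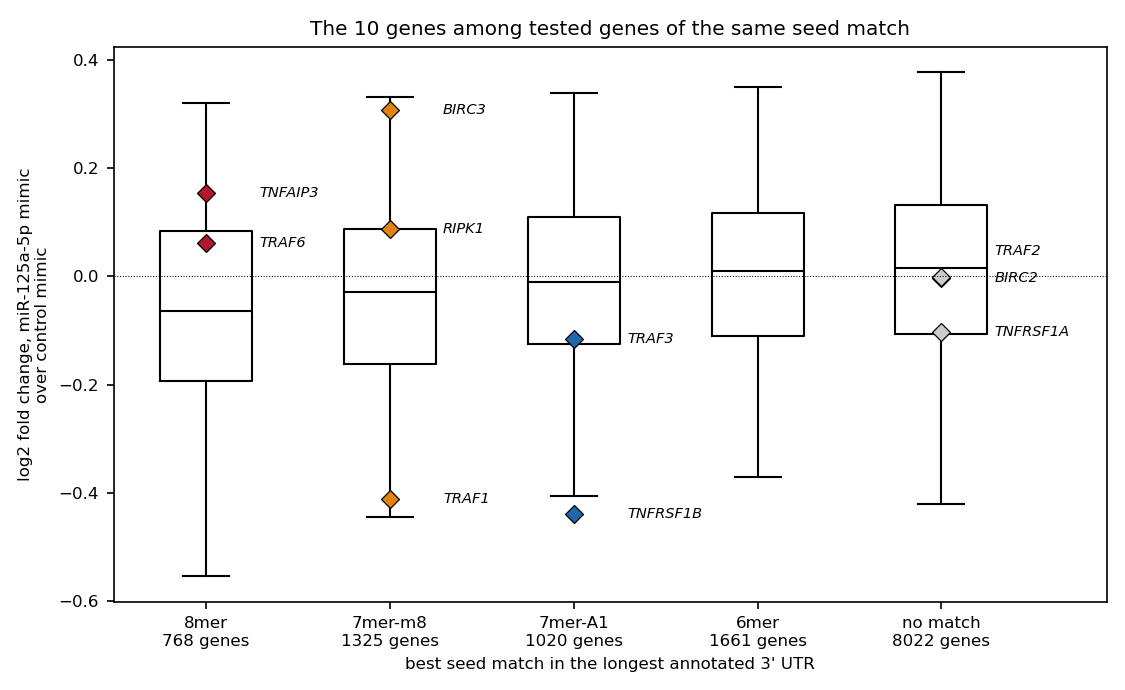
Boxes give the median and quartiles, and whiskers the 5th and 95th percentile, of the log2 fold change of tested genes by best seed match in the longest 3′ UTR, with the 10 genes as diamonds. TNFRSF1B lies below its whisker, at -0.44, while TRAF6 (0.06) and TNFAIP3 (0.15) lie above the 8mer median of -0.065.

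Among the reported targets TNFRSF1B, with 1 7mer-A1, had a log2 fold change of -0.44, and TRAF6 and TNFAIP3, with 8mers, had 0.06 and 0.15. The 95% confidence intervals of TRAF6 and TNFAIP3 both included no change, so these genes do not show how match type relates to change. Over all searched genes the class medians were -0.065 for 8mers, -0.028 for 7mer-m8 and -0.0098 for 7mer-A1. They were 0.011 for 6-base matches and 0.015 for no match. Of the 7 genes with a match of 7 or 8 bases 3 had a negative log2 fold change and 4 a positive one, with a median of 0.06. All 3 genes without such a match were negative, with a median of -0.0038. Of these TRAF2, at -0.0020, and BIRC2, at -0.0038, were near no change. Their signs reversed in 5 and 3 of 13 alternative settings, so these signs carry little weight.

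Levels per kilobase of the transcript with the longest coding sequence were set in order. TNFRSF1A averaged 51.4 ± 4.10 CPM per kb in miR-125a-5p libraries and 55.2 ± 5.38 CPM per kb in control libraries (SD, n = 3 each). TNFRSF1B came next at 21.1 ± 3.12 CPM per kb in miR-125a-5p libraries and 28.6 ± 2.18 CPM per kb in control libraries (SD, n = 3 each). The TNFRSF1A range over all 6 libraries did not touch that of TNFRSF1B, nor did that of TNFRSF1B touch that of TRAF6. TRAF6, BIRC2, RIPK1 and TNFAIP3 followed, at means over the 6 libraries of 12.98, 11.8, 11.5 and 9.05 CPM per kb, with ranges that overlapped from each to the next. TRAF3 (6.34 CPM per kb) and TRAF2 (4.13 CPM per kb) overlapped with each other and lay below them. BIRC3 (1.18 CPM per kb) and TRAF1 (0.862 CPM per kb) overlapped at the low end. With the length of all annotated exons in place of that transcript, BIRC2 changed places with RIPK1 and BIRC3 with TRAF1. The receptors kept their places but lay closer, at means of 29.6 CPM per kb for TNFRSF1A and 24.3 CPM per kb for TNFRSF1B. Their ranges over the 6 libraries then overlapped, so the gap between them depends on the length used.

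The genes whose values over the 6 libraries were most like those of TNFRSF1B were taken by the root mean square difference of log2 CPM from each gene's own mean, among 11588 tested genes with a mean of at least 5 CPM. PCP4L1 differed by 0.054, DSC3 by 0.058 and DEPP1 by 0.081. Their lower levels in miR-125a-5p libraries follow from this choice and are no separate result. PCP4L1 averaged 6.92 ± 0.638 CPM in miR-125a-5p libraries and 9.55 ± 0.962 CPM in control libraries (SD, n = 3 each). None of the 3 passed the edgeR test (adjusted p = 0.850, 0.843 and 0.843).

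**Figure D5:**
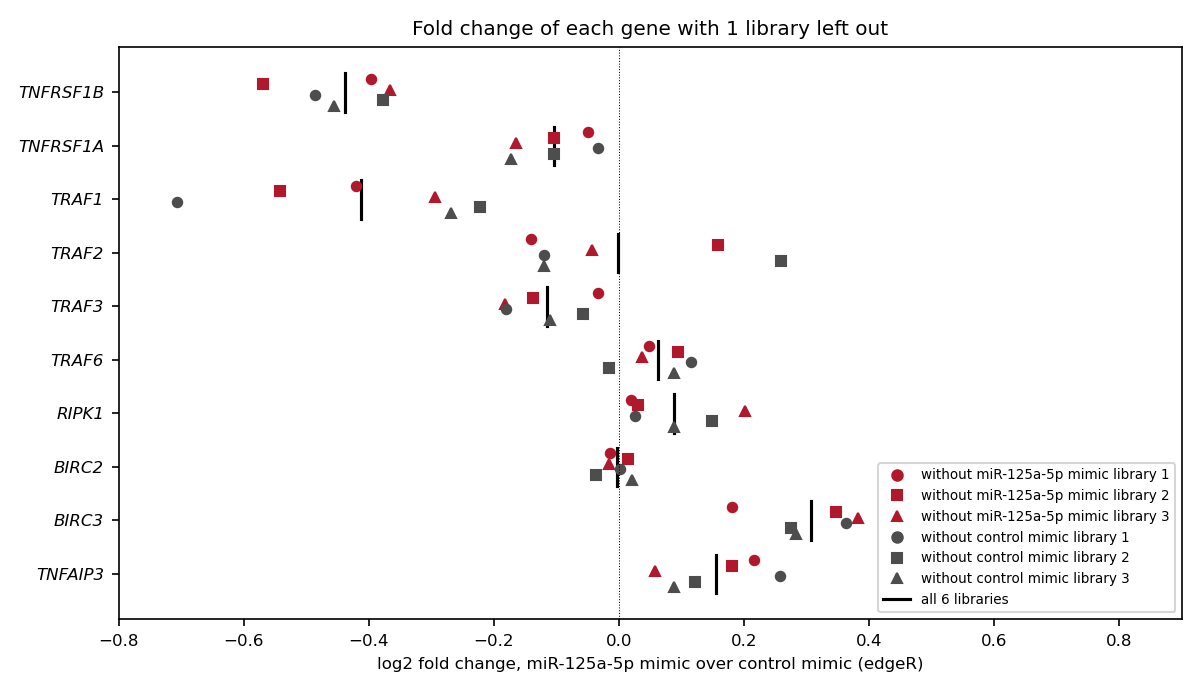
Symbols give the edgeR log2 fold change of each gene with 1 of the 6 libraries left out, and black bars the value with all 6. All 6 TNFRSF1B values lie between -0.57 and -0.37, whereas those of TRAF2 run from -0.14 to 0.26 and change sign.

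The wider pathway was read from 6 lists of 104 genes, of which 82 passed the filter on low counts. By edgeR with adjustment over all genes 0 of the 82 were lower and 0 higher. At an unadjusted p under 0.05, 7 (8.54%) were lower and 0 higher, against 3.22% and 2.69% of all tested genes. Of these 7, CFLAR, ZC3H12A, FAS, CD40, TNFSF13B and TNFSF10 were each nearest 0 without control library 1, the library that lay apart. The lists were chosen with earlier results known, so the share is not read as a result on the pathway. Ranges given below for these genes are those of the edgeR log2 fold change with each of the 6 libraries left out in turn. For the counts of negative values in each list, the share over all tested genes was 49.8%, with a median of 0.0011. In the TNF receptor 1 complex and NF-kB activation list 12 of 23 had a negative log2 fold change, with a median of -0.02. CFLAR, which encodes c-FLIP, the inhibitor of caspase-8, stood at 398 ± 6.25 CPM in miR-125a-5p libraries and 468 ± 47.1 CPM in control libraries (SD, n = 3 each). Its edgeR log2 fold change was -0.24 (adjusted p = 0.686, range -0.30 to -0.16), and the value nearest 0 was without control library 1, its highest library. RBCK1, a subunit of the linear ubiquitin ligase, had -0.21, and the kinase gene MAP3K7 (TAK1) and its partner TAB3 had 0.13 and 0.16, with edgeR adjusted p of 0.859, 0.916 and 0.912. Their ranges were -0.29 to -0.07 for RBCK1, 0.07 to 0.18 for MAP3K7 and 0.07 to 0.26 for TAB3, and RBCK1 and TAB3 were nearest 0 without control library 2 and MAP3K7 without miR-125a-5p library 3.

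In the list of other brakes 12 of 17 tested genes were negative, with a median of -0.03. ZC3H12A, the ribonuclease regnase-1, stood at 6.25 ± 0.894 CPM in miR-125a-5p libraries and 10.1 ± 2.74 CPM in control libraries (SD, n = 3 each). Its edgeR log2 fold change was -0.71 (adjusted p = 0.655, range -0.85 to -0.46) and was nearest 0 without control library 1, its highest library. The ubiquitin ligase gene PELI1 had -0.34, and RNF11 and TAX1BP1, partners of A20, each had 0.14, with edgeR adjusted p of 0.843, 0.940 and 0.898. PELI1 ranged from -0.44 to -0.21 (without control library 1) and TAX1BP1 from 0.06 (without miR-125a-5p library 2) to 0.22 (without miR-125a-5p library 3). RNF11 moved most, to 0.35 without control library 1 and 0.03 without control library 3. The NF-kB subunits were 2 of 5 negative, with a median of 0.08. RELA (p65) had 0.17, NFKB2 0.13, NFKB1 -0.07 and REL -0.06, with edgeR adjusted p from 0.898 to 0.975. RELA ranged from 0.10 to 0.27 and NFKB2 from -0.04 (without miR-125a-5p library 2) to 0.36 (without miR-125a-5p library 1). NFKB1 ranged from -0.14 to -0.02 and REL from -0.14 to -0.03.

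Of 26 other receptors of the TNF receptor superfamily 13 were abundant enough to test, and 10 of these were negative, with a median of -0.17. FAS, the death receptor for Fas ligand, stood at 1.36 ± 0.691 CPM in miR-125a-5p libraries and 3.54 ± 2.23 CPM in control libraries (SD, n = 3 each). Its edgeR log2 fold change was -1.40 (adjusted p = 0.655, range -1.86 to -0.75), nearest 0 without control library 1. CD40, the costimulatory receptor of antigen-presenting cells, stood at 11.3 ± 1.38 CPM in miR-125a-5p libraries and 15.6 ± 3.37 CPM in control libraries (SD, n = 3 each). Its edgeR log2 fold change was -0.47 (adjusted p = 0.799, range -0.57 to -0.28), nearest 0 without control library 1. CD27 and the TRAIL receptor gene TNFRSF10A had 0.80 and 0.54, with edgeR adjusted p of 0.884 each, means under 5 CPM, and ranges of 0.54 to 1.10 for CD27 and 0.32 to 0.66 for TNFRSF10A. CD27 was nearest 0 without control library 1 and TNFRSF10A without miR-125a-5p library 2.

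In the list of TNF ligands with the sheddase ADAM17, 8 of 11 tested genes were negative, with a median of -0.14. TNFSF13B, which encodes the B-cell survival factor BAFF, stood at 58.8 ± 3.37 CPM in miR-125a-5p libraries and 77.6 ± 17.0 CPM in control libraries (SD, n = 3 each). TNFSF10 (TRAIL) stood at 104 ± 18.3 CPM in miR-125a-5p libraries and 128 ± 22.2 CPM in control libraries (SD, n = 3 each). Their edgeR log2 fold changes were -0.40 and -0.30 (adjusted p = 0.555 and 0.793). TNFSF13B ranged from -0.55 to -0.23 and TNFSF10 from -0.41 to -0.16, both nearest 0 without control library 1, their highest library. TNFSF4 had 0.66 and LTB 0.18, with edgeR adjusted p of 0.898 and 0.979. TNFSF4 ranged from 0.48 to 0.83 and LTB from -0.26 (without miR-125a-5p library 2) to 0.38 (without miR-125a-5p library 1). TNF itself stood at 9.40, 11.7 and 13.1 CPM in miR-125a-5p libraries 1, 2 and 3, against 11.6, 11.7 and 14.7 CPM in control libraries 1, 2 and 3, and the groups overlapped. TNF was not among the genes taken by smallest p and is given as the ligand of both receptors.

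Among receptor-side partners of TRAF6, 5 of 13 tested genes were negative, with a median of 0.02. TICAM2 (TRAM), an adaptor of Toll-like receptor 4, stood at 16.4, 17.7 and 17.5 CPM in miR-125a-5p libraries 1, 2 and 3, against 28.2, 25.3 and 22.3 CPM in control libraries 1, 2 and 3. The groups did not overlap, and the edgeR log2 fold change was -0.55 (adjusted p = 0.455, range -0.64 to -0.47). Its best match in the 3′ UTR was a 7mer-A1. The other list genes lower at an unadjusted p under 0.05 held no match of 7 or 8 bases there. CFLAR held a 6-base match, and ZC3H12A, FAS, CD40, TNFSF13B and TNFSF10 held none. TIRAP had -0.22, TICAM1 0.10 and IRAK1 0.07, with edgeR adjusted p of 0.898, 0.954 and 0.954. TIRAP ranged from -0.35 (without miR-125a-5p library 3) to -0.10 (without control library 2), TICAM1 from -0.0078 (without miR-125a-5p library 2) to 0.18 and IRAK1 from 0.0036 (without control library 2) to 0.14.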

How the data were processed

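RNA of 6 THP-1 libraries was sequenced. The authors deposited raw counts per NCBI gene identifier, which are not normalized. The submitters' processing notes name the tools bcl2fastq, TopHat and edgeR and the build hg19. How reads were counted, with which annotation and strand setting, is not given in the sources used here. Identifiers were named from a RefSeq gene table on GRCh38.p14 (26204 of 26347 matched).

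The test was edgeR 4.0.16 (R 4.3.3): filterByExpr (14731 of 21274 genes with any count), trimmed mean of M-values, glmQLFit and glmQLFTest at the package default, no covariate, Benjamini-Hochberg adjustment over all tested genes, threshold 0.05. The SE is the log2 fold change divided by the square root of F, and 95% intervals use the fit's degrees of freedom. Single ratios had exact permutation tests in SciPy 1.17.1. Intervals of counts cover counting error only. Seed matches were searched in GENCODE 29 transcripts (GRCh38, another build than that of the counts), in 3′ UTRs of at least 20 bases. Levels per kilobase used the GENCODE transcript with the longest coding sequence.

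The fit was tested on simulated data with known changes. The genes and lists were chosen with earlier results of these data known. All 10 genes are named. From each list the members that passed are named or, where none passed, the 2 lower and 2 higher with the smallest p. The genes most like TNFRSF1B are the 3 nearest by the distance given. Alternatives were RLE size factors, plain library totals, no count filter, DESeq2 1.42.0, limma 3.58.1 voom, edgeR with legacy = FALSE, the replicate number as a block, each library left out, and other transcripts for the seed search.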

Additional observations from a re-analysis of the deposited data

How the results depend on the processing

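Over 13 alternatives for each of the 10 genes, 120 of 130 values kept their sign and their side of the threshold, 9 changed sign and 1, TNFRSF1B without the count filter, passed (log2 fold change -0.44, 1 gene of the 10 called). The sign of TRAF2 changed to 0.018 with voom, 0.0038 with legacy = FALSE and 0.011 with the replicate block. It changed further, to 0.16 without miR-125a-5p library 2 and 0.26 without control library 2. With 1 library left out TRAF2 ran from -0.14 to 0.26, BIRC2 from -0.037 to 0.020 and TRAF6 from -0.016 to 0.11. The cause was not tested. Over all genes the calls were 11 higher and 41 lower without the count filter, 1 higher and 8 lower with DESeq2, 9 lower with the replicate block, and 0 to 2 higher and 3 to 14 lower with 1 library left out (2 higher without miR-125a-5p library 3, 14 lower without control library 3). Of the 10 genes, 1 to 2 had an unadjusted p under 0.05 and 2 to 5 had groups that did not overlap with 1 library left out. In these settings 19.8% to 22.4% of all tested genes did not overlap. The highest counts, 2 and 5, came without control library 1, where TRAF1, TRAF3 and TNFAIP3 joined TNFRSF1B and BIRC3. There 22.4% of all tested genes did not overlap, and of 15022 genes 498 were higher and 458 lower at an unadjusted edgeR p under 0.05. The replicate block left TNFRSF1B at -0.45 (edgeR adjusted p = 0.107). Correlations of same-numbered libraries, as deviations from their group means, were 0.091, 0.058 and -0.012. Those of differently numbered libraries ran from -0.085 to 0.041. The same-numbered control library was the best match of miR-125a-5p libraries 1 and 2, whereas miR-125a-5p library 3 correlated best with control library 2 (0.025). Whether same-numbered libraries were handled together cannot be decided from 3 such pairs. A match of 7 or 8 bases was found in 7 genes in the longest 3′ UTR, 5 in the shortest, 2 in the coding sequence of the same transcript, and, chosen after seeing the data, 7 in the 3′ UTR and 3 in the coding part of the transcript with the longest coding sequence. With 1 library left out list medians ran from -0.065 to 0.14 for the NF-kB subunits, -0.32 to -0.12 for the receptor superfamily, -0.18 to -0.039 for the ligands, -0.050 to 0.027 for the receptor 1 complex, -0.077 to -0.027 for the brakes and -0.075 to 0.082 for the TRAF6 partners. Counts of 32 to 106 per library limit what TRAF1, TRAF2 and BIRC3 can show.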
